A study of Mus musculus with 4 samples.

Results

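The endothelin system is described here in ST2 cells, an established, fibroblast-like stromal line from BALB/c mouse bone marrow, without and after exposure to LIPUS, pulsed ultrasound of low intensity that is applied clinically to healing bone. Its members were taken by gene symbol, namely the ligand genes Edn1, Edn2 and Edn3, the converting enzyme genes Ece1 and Ece2, and the receptor genes Ednra and Ednrb. Of these 7 genes, 6 had at least 1 probe set with a single symbol, 14 probe sets in all among 45101 on the array, and Ednra was not analysed here. The 4 groups were untreated ST2 cells at 37 °C and ST2 cells exposed for 20 min at 25 mW per square cm and collected after a further 0.5, 1 or 3 h at 37 °C. All groups were grown in RPMI 1640 with 10% fetal bovine serum under 5% CO2, and each was measured on 1 Affymetrix Mouse Genome 430 2.0 array. The labels give neither a sham exposure nor a harvest time for the control. With no replicate arrays there is no test, and no value here has a replicate error. The spread that these arrays do give is that between 2 probe sets of the same gene, as an SD of the log2 ratio. It leaves out any difference between cultures.

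Endothelins are short peptides made as long precursors, which furin-type proteases trim to an inactive intermediate called big endothelin. Membrane metalloproteases of the endothelin-converting enzyme family cut that intermediate to the active peptide, which acts through a pair of G protein-coupled receptors to raise intracellular calcium and to activate protein kinase C and MAP kinase signalling. Release is set largely by how much Edn1 transcript a cell makes, since the peptide is secreted soon after synthesis and the transcript is short-lived. Endothelial cells are its best known source, and in bone endothelin signalling acts on cells of the osteoblast lineage.

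Edn1 was the 1 member to pass the rule of size used for changed genes, so the window around its start is printed. The sequence is the RefSeq promoter window of Edn1 at chr13:42301226-42301525 (GRCm38.p6, plus strand), 250 bases before the annotated start and the first 50 bases after it. Capitals mark matches to the motifs searched.
Edn1: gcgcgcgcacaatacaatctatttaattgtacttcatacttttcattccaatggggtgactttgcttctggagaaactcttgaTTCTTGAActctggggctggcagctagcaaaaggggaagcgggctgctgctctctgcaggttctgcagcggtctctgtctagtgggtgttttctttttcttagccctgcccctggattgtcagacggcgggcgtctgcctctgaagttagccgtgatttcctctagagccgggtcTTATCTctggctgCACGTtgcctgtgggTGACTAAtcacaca

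On either strand, the window held 4 of the 10 motif types that were searched. The matches were TGACTAA, a variant of the AP-1 site to which FOS and JUN proteins bind, at bases 37 to 43 counted from the start. A GATA site (AGATAA, read here on the other strand as TTATCT) lay at bases 9 to 14, and the hypoxia response core (ACGTG, read as CACGT) at bases 22 to 26. These 3 all lay after the annotated start. Where transcription of Edn1 starts in these cells was not tested. The fourth was a pair of tail-to-tail heat shock units (TTCNNGAA) from base -167 to base -160, before the start. Of 32851 windows of this length, 2.35% held TGACTAA, 11.2% the GATA site, 19.6% the hypoxia core and 8.52% the tail-to-tail heat shock pair. The first 3 occurred together in 26 windows, which is 0.0791%. That combination is made of motifs matched in this window and leaves out the fourth match. Its share is therefore no measure of how unusual the window is. The strict AP-1 site (TGACTCA, in 5.20% of windows), the cAMP response element (TGACGTCA, 1.79%), the EGR site (GCGGGGGCG, 2.91%), the head-to-head heat shock pair (GAANNTTC, 7.86%), TATAAA (13.6%) and the CArG box (1.63%) had no match in it. The search covered the 300 bases of the window alone, so a motif before or after them would have been missed. Among the 9 windows of the other members, the third of the 4 Ece1 windows and the Ece2 window held the hypoxia core, on both strands at overlapping bases in Ece1, and none of the 9 held another of these motifs. AP-1, GATA and hypoxia-inducible factors are known to act on the Edn1 gene in endothelial cells. A match is a string of letters and does not show that a factor was bound in these cells.

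Edn1 had a log2 signal of 7.04 on the control array, and 8.45, 7.82 and 7.51 at 0.5, 1 and 3 h. It was lowest in the control and highest at 0.5 h, and each later array was lower than the one before it while staying above the control. Relative to the control, Edn1 rose 2.66-fold at 0.5 h, a log2 ratio of 1.41, where the spread between probe sets was 0.106 over 5006 genes. At 1 h its log2 ratio was 0.79, or 1.73-fold, against a spread of 0.156, and at 3 h it was 0.47, or 1.39-fold, against a spread of 0.136. A gene was counted as changed when its log2 signals differed by 1 or more, that is 2-fold, so the values at 1 h and 3 h did not pass. The steps of -0.63 from 0.5 h to 1 h and of -0.31 from 1 h to 3 h did not pass either, and each was larger than the spread for that step, 0.135 and 0.103. All of this rests on 1 probe set, since Edn1 had no other. In these bulk samples, a change in the number of cells that express the gene and a change in its RNA per cell cannot be told apart.

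**Figure D1:**
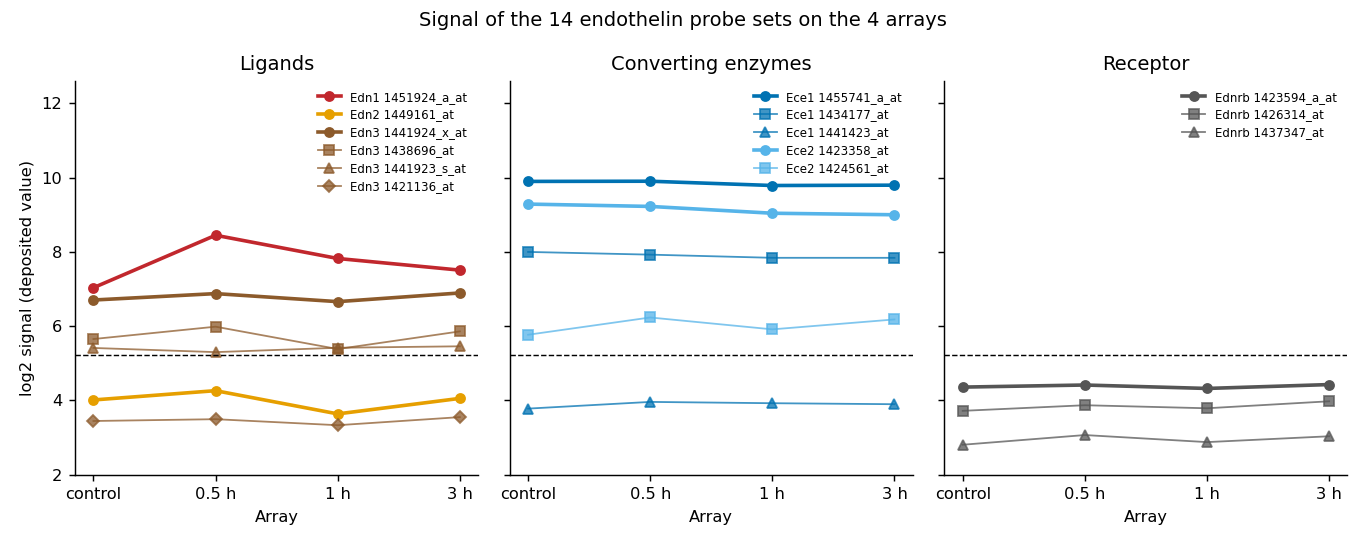
Log2 signal of every endothelin probe set (vertical axis) on the control array and at 0.5, 1 and 3 h after LIPUS (horizontal axis), in panels for ligands, converting enzymes and receptor. Each line is 1 probe set, the thicker line being the brightest of its gene, and the dashed line is the floor of 5.23. Edn1 moves from 7.04 to 8.45 and back to 7.51, and the Edn2 line, the 3 Ednrb lines, 1 Edn3 line and 1 Ece1 line stay under the floor.

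The size of the Edn1 value was read against all genes measured. At 0.5 h, 16 of 11574 genes, or 0.138%, rose at least 2-fold and 0% fell, and Edn1 had the 11th highest ratio. At 1 h it ranked 47th of 11497 genes, with 0.191% of genes past 2-fold upward and 0% downward, and at 3 h it ranked 88th of 11574, with 0.0691% upward and 0% downward. The 99th percentile of all ratios was 0.36 at 0.5 h, 0.57 at 1 h and 0.44 at 3 h, so Edn1 lay above it each time, by a margin of a few hundredths at 3 h. Among 870 other genes whose control signal lay within 0.25 of that of Edn1, 1 had a higher ratio at 0.5 h, 6 at 1 h and 6 at 3 h. From 0.5 h to 1 h, 0.0348% of 11507 genes rose and 0.00869% fell, and Edn1 had the 10th lowest step of all and the lowest beside those 870 genes. From 1 h to 3 h, 0% of 11494 genes rose and 0.087% fell, and Edn1 was the 296th lowest.

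**Figure D2:**
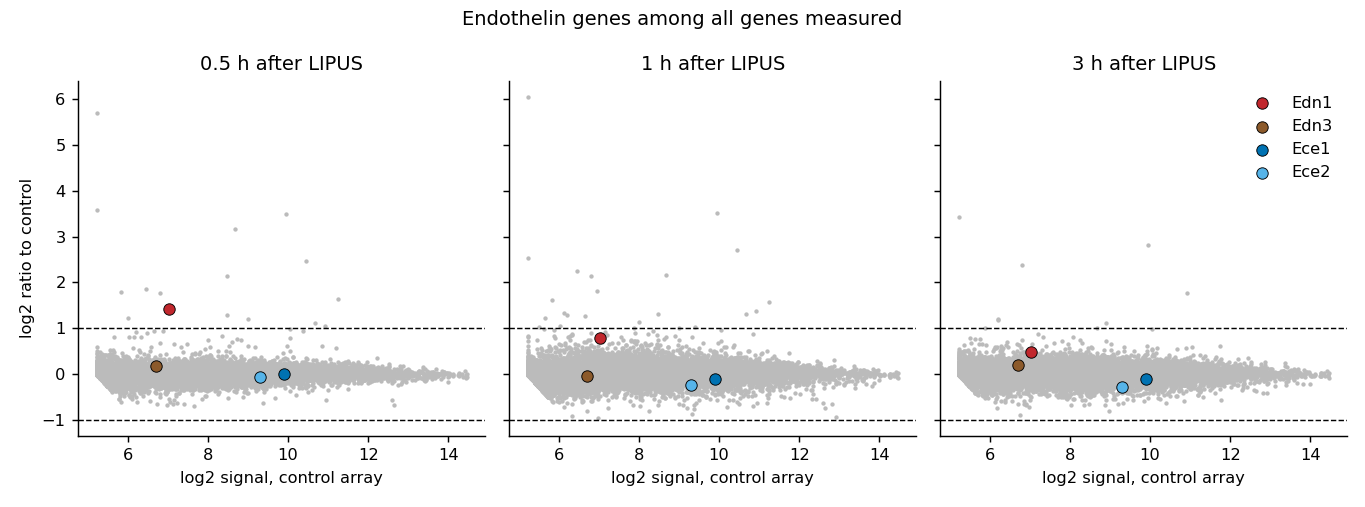
Log2 ratio to the control (vertical axis) against log2 signal on the control array (horizontal axis) at each time, for all genes measured (grey) and for the 4 endothelin genes above the floor (coloured). Values under the floor are raised to it and the dashed lines are at 2-fold. Edn1 leaves the grey band at 0.5 h with 1.41 and is back at its upper edge with 0.47 at 3 h, while Edn3, Ece1 and Ece2 stay inside it.

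Of the other ligand genes, Edn3 was measured and Edn2 was not. Edn2, whose product is close to that of Edn1 in sequence and acts on the same receptors, had log2 signals of 4.01, 4.26, 3.64 and 4.06 in the control and at 0.5, 1 and 3 h. All of these lay under the floor of 5.23, the median of all values on the arrays, under which values were given no order, so no ratio was taken. Edn3, the ligand of neural crest development that prefers the receptor Ednrb, had 4 probe sets that disagreed on its level. Its brightest had log2 signals of 6.70, 6.88, 6.66 and 6.89 in that order. The next had 5.65, 5.99, 5.38 and 5.86, the third stayed between 5.30 and 5.46, and the fourth, whose annotation cites a RefSeq transcript of Edn3, stayed between 3.33 and 3.55, under the floor. The ratios of the brightest were 0.17, -0.04 and 0.19 at 0.5, 1 and 3 h, and none of the 3 measured probe sets passed 2-fold. The second had ratios of 0.33, -0.27 and 0.21 and the third -0.11, 0.01 and 0.04, so the probe set ratios differed in sign at 0.5 h and at 1 h. Whether the bright probe sets read Edn3 transcript in these cells was not tested.

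Ece1, which encodes the main enzyme that makes active endothelin from its intermediate, had log2 signals of 9.90 in the control, 9.90 at 0.5 h, 9.79 at 1 h, then 9.80 at 3 h by its brightest probe set. These 4 values spanned 0.12, and the ratios of 0.01, -0.11 and -0.10 were each smaller than the spread between probe sets. Its second probe set read 8.0, 7.93, 7.84 and 7.84, with ratios of -0.07, -0.158 and -0.159. In size, the ratios of this probe set at 1 h and 3 h were larger than the spreads of 0.156 and 0.136. Both probe sets were lower at 1 h and 3 h than in the control by 0.10 to 0.16. The third Ece1 probe set stayed under the floor, between 3.78 and 3.96.

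Ece2 encodes a related converting enzyme that works at the acid pH of intracellular vesicles. Its brightest probe set had log2 signals of 9.29, 9.22, 9.04 and 9.0 in the control and at 0.5, 1 and 3 h. Its ratios were -0.06, -0.25 and -0.29, the lowest among the members at 1 h and 3 h and the 480th lowest of all genes at 3 h. The other Ece2 probe set had log2 signals of 5.77, 6.24, 5.91 and 6.18, with ratios of 0.47, 0.15 and 0.41. The 2 probe sets thus had ratios of opposite sign at every time, and neither passed 2-fold. RefSeq lists a read-through gene, Eef1akmt4-ece2, that overlaps Ece2 and also covers the adjoining methyltransferase gene Eef1akmt4. Which of these transcripts each probe set reads was not tested, so the direction for Ece2 is uncertain.

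The annotation used listed no probe set for Ednra, and it left out 9160 probe sets of the array other than controls, so the level of Ednra is not known here. Of the receptor genes, only Ednrb, the receptor that binds all endothelins alike, had probe sets in that annotation. Its brightest had log2 signals of 4.36, 4.42, 4.32 and 4.43 in the control and at 0.5, 1 and 3 h, a span of 0.10 with every value under the floor. The others stayed between 3.72 and 3.98 and between 2.81 and 3.07. No ratio was taken for Ednrb.

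**Figure D3:**
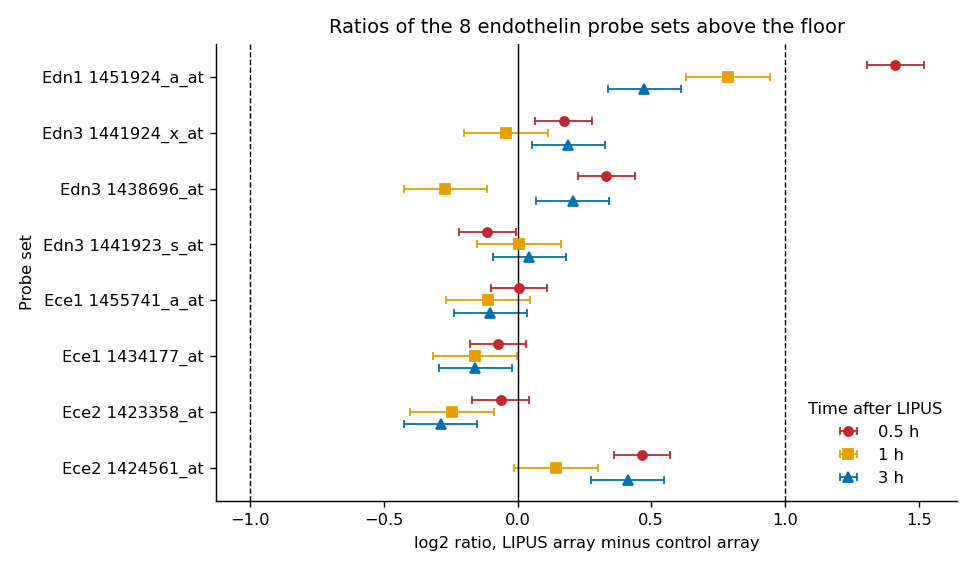
Log2 ratio of the 8 endothelin probe sets that lay above the floor (vertical axis) at 0.5, 1 and 3 h after LIPUS, as the LIPUS array minus the control array (horizontal axis). Bars are ± 1 SD of the ratio between probe sets of the same gene over 5006 genes, which is not a replicate error, and dashed lines are at 2-fold. The Edn1 ratio at 0.5 h, 1.41, is the 1 point past a dashed line, and the Ece2 probe sets lie on opposite sides of 0.

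Over all genes measured, 0.138%, 0.191% and 0.0691% rose at least 2-fold at 0.5, 1 and 3 h, and 0% fell. In the steps between times, at most 0.0348% rose and at most 0.087% fell. By count, 1 of the 4 endothelin genes measured rose at 0.5 h. At 1 h, at 3 h and in the steps between times, 0 of 4 passed the rule in either direction. Counts of 0 of 4 are close to those shares and say little about the members. The 3 others lay between -0.06 and 0.17 at 0.5 h, between -0.25 and -0.04 at 1 h and between -0.29 and 0.19 at 3 h. The median of the 4 was 0.09 at 0.5 h, -0.08 at 1 h and 0.04 at 3 h, where that of all genes was 0.01, 0.02 and 0.01. The comparisons at 0.5, 1 and 3 h share the control array.

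The pattern of Edn1 over the 4 arrays was most like that of Clk1, Dusp1, Clk4, Jun and Ccdc117, in that order, by the root mean square difference of log2 signals after each of 11685 genes was centred on its own mean. Clk1 and Clk4 encode kinases of splicing factors, Dusp1 a phosphatase of MAP kinases and Jun a subunit of AP-1. The difference from Edn1 was 0.13 for Clk1 and from 0.17 to 0.21 for the other 4. At 0.5 h the ratios of these genes were 1.29 for Clk1, 0.98 for Dusp1, 0.94 for Clk4, 0.95 for Jun and 1.22 for Ccdc117. At 3 h Edn1, at 0.47, and Dusp1, at 0.39, lay above the other 4, which ran from -0.09 to 0.13. By Pearson's r over the 4 arrays among 34 other genes that spanned at least 1 on the log2 scale, the first 5 were Rsrp1, Clk1, Fos, Egr1 and Ccdc117, of which 2 are shared with the list above. Of the 29 genes that rose at 1 or more times, 9 had their highest signal at 0.5 h, Edn1 among them, and 4 passed 2-fold at 0.5 h alone, namely Ccdc117, Clk1, Edn1 and Ptgs2.

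**Figure D4:**
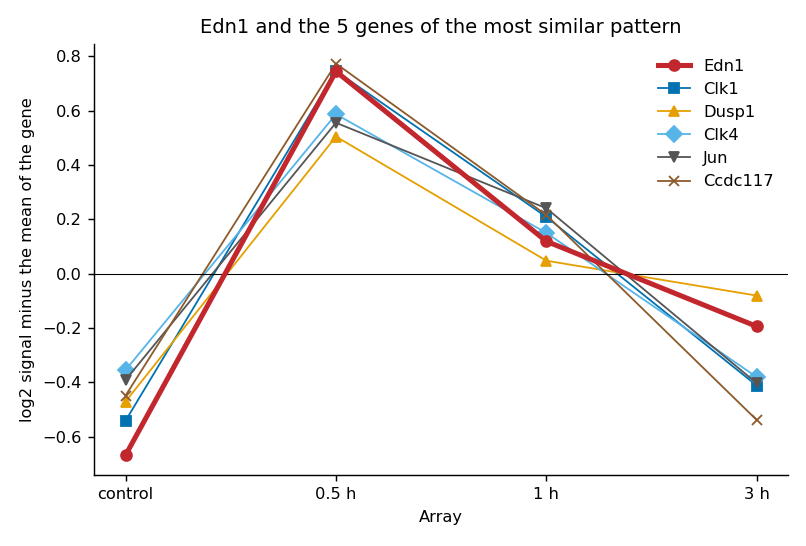
Log2 signal minus the mean of each gene (vertical axis) on the 4 arrays (horizontal axis) for Edn1 and the 5 genes with the smallest root mean square difference from it. Points are single arrays. All 6 genes are highest at 0.5 h, and Edn1 and Dusp1 are the 2 highest at 3 h.

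The protein-coding genes next to Edn1 in RefSeq are Hivep1 and Phactr1. Hivep1, which encodes a zinc finger transcription factor, had ratios of 0.04, 0.30 and -0.03 at 0.5, 1 and 3 h, and Phactr1, which encodes a regulator of actin and protein phosphatase, had ratios of 0.21, -0.08 and -0.05. Neither passed 2-fold. Of the other neighbours, Psmd2, a proteasome subunit gene next to Ece2, had ratios of -0.04, -0.47 and -0.31, and Eif4g3, a translation factor gene next to Ece1, had ratios of -0.01, 0.13 and 0.00. Camk2n2, on the other side of Ece2, had ratios of -0.08, 0.04 and -0.01. Hivep3, next to Edn2, was at -0.07, 0.06 and -0.15, and Tmem184c, next to Ednra, at 0.04, 0.18 and 0.01. The remaining neighbours lay under the floor or had no probe set with a single symbol.

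The peptide processing and breakdown list had 12 genes, of which 8 were measured at 0.5 h and 1 h and 9 at 3 h, and none passed 2-fold in any comparison. Over all genes measured, at most 0.191% rose and at most 0.087% fell in any comparison. A list with no gene past 2-fold, here or in what follows, is therefore close to the share of all genes. Furin, a protease of the first cut, had ratios of -0.16, -0.19 and -0.19. Mme, which encodes neprilysin, an enzyme that breaks down endothelin, had ratios of 0.12, 0.36 and 0.28. Pcsk7, another protease of the precursor, was the highest at 0.5 h, at 0.12, and Ctsa, a carboxypeptidase gene, the lowest at 1 h, at -0.20. The list median was -0.01, 0.04 and -0.02 at 0.5, 1 and 3 h. Of 34 genes of receptor signalling, 26 were measured at 0.5 h and 1 h and 25 at 3 h, and none passed 2-fold. Gnaq, the G protein subunit that couples the receptors to phospholipase C, had ratios of 0.00, 0.40 and 0.27, the highest of the list at 1 h and at 3 h. Prkcd, a protein kinase C gene, had ratios of -0.17, -0.53 and -0.39 and was the lowest at 1 h and 3 h. At 0.5 h the list ran from -0.27 for Prkce, another protein kinase C gene, to 0.12 for Arrb1, which encodes an arrestin. The list median was 0.00 at 0.5 h, 0.06 at 1 h and 0.03 at 3 h.

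Of 21 transcription factors known to act on the Edn1 gene, 20 were measured. Fos rose at 0.5 h and 1 h, and the other 19 did not pass 2-fold. Of all genes measured, 0.138% and 0.191% rose at those times. Fos had log2 signals of 5.08, 8.82, 7.76 and 5.70 in array order, from the control to 3 h. The control value lay under the floor, so Fos was at least 3.59 higher at 0.5 h, at least 2.54 at 1 h and at least 0.47 at 3 h on the log2 scale. Fos then fell, with steps of -1.06 from 0.5 h to 1 h and -2.07 from 1 h to 3 h. Jun had ratios of 0.95, 0.63 and -0.01 and Junb, another AP-1 subunit gene, 0.12, 0.88 and 0.11. Jund was the lowest of the list at 0.5 h, at -0.34, and Fosl1 at 1 h and 3 h, at -0.29 and -0.39. Klf2, a factor known for its answer to fluid flow in endothelial cells, was at 0.31 at 3 h. Gata2, Hif1a and Smad3 were at -0.03, 0.08 and -0.15 at 0.5 h. The list median was -0.04, 0.03 and 0.01 at 0.5, 1 and 3 h.

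Of 16 early response genes, a list that overlaps the preceding one, 15 were measured. At 0.5 h, where 0.138% of all genes measured rose, 6 of the 15 rose, namely Fos, Egr1, Atf3, Arc, Phlda1 and Ptgs2. The first 5 of these had also risen at 1 h and fell at least 2-fold from 1 h to 3 h, and 0 of the 15 passed the rule at 3 h. Of all genes measured, 0.191% rose at 1 h, 0.087% fell from 1 h to 3 h and 0.0691% rose at 3 h. Fos was the highest of the list at 0.5 h, at least 3.59, and at 1 h, at least 2.54, its control value being under the floor. Among genes above the floor on both arrays, Egr1, a zinc finger factor gene, was the highest at 0.5 h, at 3.16. Atf3, a stress-induced factor gene, was the highest of these at 1 h, at 2.26. The lowest were Ier3 at 0.5 h, Egr3 at 1 h and Nr4a1 at 3 h, at -0.36, -0.31 and -0.52. The list median was 0.95, 0.63 and -0.01. Edn1 is not on the list, and its values were 1.41, 0.79 and 0.47.

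Of 26 genes of other vasoactive peptide systems, 13 were measured at 0.5 h and 3 h and 12 at 1 h, and none passed 2-fold. Adm, which encodes the vasodilator adrenomedullin, was at 0.13, 0.18 and 0.27, and its receptor gene Calcrl at 0.08, 0.13 and 0.44. Apln, which encodes apelin, was at -0.13, -0.39 and -0.41. Nos2, the inducible nitric oxide synthase gene, had log2 signals of 5.22, 5.72, 5.26 and 5.43 in array order. Its control value lay under the floor, so it was at least 0.49 higher at 0.5 h, and its step to 1 h was -0.45, the lowest of the list. Ace, at -0.15, was the lowest at 0.5 h, and Ramp1, a receptor partner of Calcrl, the highest at 1 h, at 0.18. The list median was 0.04, 0.00 and 0.03. Of 16 genes known to answer endothelin in bone and connective tissue cells, 9 were measured. Ptgs2, an inducible prostaglandin synthase gene, is also on the list of early response genes. It rose at 0.5 h by 1.20 on the log2 scale, where 0.138% of all genes measured rose. Its ratios at 1 h and 3 h were 0.73 and -0.20. Vegfa, a vascular growth factor gene, was the lowest at each time, with -0.18, -0.23 and -0.40. The other 8 did not pass 2-fold, and Dkk1, Il6 and Tnfsf11 lay under the floor on all 4 arrays. The list median was -0.04, -0.03 and -0.11.

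The cells carried the markers of their label. Of 10 stromal markers, 9 lay above the floor on every array and Thy1 on none, and the log2 of their summed signal ran from 15.7 to 15.8. Endothelial cells are a common source of Edn1. Of 9 endothelial markers, 7 gave no signal over the floor on any array, namely Pecam1, Cdh5, Tek, Tie1, Vwf, Emcn and Esam. Kdr was above the floor on all 4 arrays, with ratios of 0.17, -0.15 and 0.07 at 0.5, 1 and 3 h. Cldn5 was above it at 0.5 h and 1 h alone. The log2 of the summed signal of the endothelial markers was 7.65, 7.78, 7.62 and 7.68 in array order, and their part in the Edn1 values was not tested. Among 8 haematopoietic markers, Ptprc, Adgre1, Cd68 and Tyrobp gave no signal over the floor, and the log2 summed signal was 8.57, 8.72, 8.73 and 8.76 in array order. Lyz2, at 6.84 in the control, and Cd74, at 6.43, were above the floor and higher on each LIPUS array, with ratios of 0.30, 0.38 and 0.47 for Lyz2 and 0.21, 0.24 and 0.25 for Cd74 at 0.5, 1 and 3 h. Csf1r had ratios between -0.07 and 0.00, and Spi1 was above the floor on all but the 3 h array. No haematopoietic marker passed 2-fold, and their part in the Edn1 values was not tested. Of 8 smooth muscle and pericyte markers, Acta2 (14.32 to 14.35 on the log2 scale), Tagln (13.17 to 13.21), Cnn1 (10.03 to 10.21), Des and Cspg4 were above the floor on all 4 arrays. Myh11 and Rgs5 were under it throughout, and the log2 summed signal ran from 14.9 to 15.0. No marker of that list passed 2-fold. The arrays had medians from 5.21 to 5.25 and a correlation across probe sets from 0.996 to 0.997. The 24 poly-A spike-in probe sets, which read bacterial transcripts, differed from the control array by a median of -0.05 at 0.5 h, 0.29 at 1 h and 0.39 at 3 h, with 24 of 24 higher at 1 h and at 3 h. With the arrays centred on these probe sets, a choice made after the data were seen, Edn1 was at 1.46, 0.50 and 0.081 at 0.5, 1 and 3 h.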

How the data were processed

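RNA from 4 ST2 cultures was measured on 1 array each. The authors deposited 1 value per probe set on a log2 scale, already scaled between arrays. Their range set the log base, and the sources used here do not name the summarisation method. Per the labels' protocols, cRNA was made from 500 ng of total RNA with an RNA integrity number above 9.5, using a kit for the 3' end of transcripts.

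Symbols came from the platform annotation and were updated through the Entrez number for 34754 probe sets, and 932 probe sets with several symbols were left out. The brightest probe set stood for each of 18193 genes, of which 11685 lay above the floor (log2 5.23) on at least 1 array. Lower values were raised to the floor, giving lower bounds, and no ratio was taken with both arrays under it. Changed means a difference of at least 1, with no test and no p-value. The members and lists were chosen with earlier results of these data known. Genes named were the members, their neighbours, the 5 most like Edn1, and list members past 2-fold or with the highest or lowest ratio to the control among those with both arrays above the floor. Others named, such as Gata2, Hif1a, Smad3, Junb and Adm at some times, were chosen after their values were seen. Promoter windows are from RefSeq (GRCm38.p6), found for 7 of 7 members. Python 3.11.15 with pandas 2.3.3 and limma 3.58.1 (quantile and loess scaling) were used.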

Additional observations from a re-analysis of the deposited data

Results flagged for a closer look

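The 3 probe sets for 18S ribosomal RNA, which no comparison here uses, were higher on each LIPUS array than on the control array. Their median log2 difference was 0.96 at 0.5 h, 1.91 at 1 h and 1.79 at 3 h, with 3 of 3 probe sets higher each time. Their part in the Edn1 values was not tested.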

How the results depend on the processing

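The rise of Edn1 at 0.5 h stayed past 2-fold with each other scaling, at 1.41 to 1.46. The floor at the 25th percentile, no floor and the other choices of probe sets could not alter it. Edn1 has 1 probe set, and all 4 of its values lie above the main floor. The rise was short of the rule at 3-fold (1.41, leaving 0 members past it). With the floor at the 75th percentile it had a lower bound of 0.73, and with the other 3 arrays' mean as reference it was 0.99, each again leaving 0 members. With that higher floor Edn1 was at 0.11 at 1 h and at -0.11 from 1 h to 3 h, because its control and 3 h values are both raised to the floor, and it gave no ratio at 3 h. Against the mean of the other 3 arrays it was 0.16 at 1 h and -0.26 at 3 h, a reference that holds the 0.5 h array. At 1.5-fold, 1 member, Edn1, passed at 1 h (0.79) and from 0.5 h to 1 h (-0.63). Centring on the poly-A controls, added after the data were seen, shifts the median of all genes by 0.05, -0.29 and -0.39, and gave Edn1 values of 0.50 at 1 h, 0.081 at 3 h, -0.96 from 0.5 h to 1 h and -0.42 from 1 h to 3 h. Ece2 ran from -0.68 to 0.06 at 3 h over 13 alternatives and never passed 2-fold. No paired analysis was possible because each group has 1 array. The number of arrays and the signal over the floor limit every value.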
